A study of Mus musculus with 9 samples.

Results

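Secretory granules reach the cell surface through Rab GTPases, small switch proteins that label vesicles, and SNARE proteins, which pull a vesicle and its target membrane together. The genes described here are all those of the array annotation whose symbol is a numbered Rab, syntaxin (Stx), vesicle-associated membrane protein (Vamp), syntaxin-binding protein (Stxbp) or synaptotagmin (Syt), plus Snap23, Snap29 and Unc13d. Membership rested on the symbol alone. Where a gene had several probe sets, the one with the highest mean signal over the 9 arrays gave its values. The rule found 104 of the 19938 genes measured: 59 Rabs, 14 syntaxins, 6 Vamps, 5 Stxbps, 17 synaptotagmins and the last 3 genes. Probe sets that name several genes were left out, and 2 of these name a symbol of the rule; one is the sole probe set of Vamp2, which therefore has no value.

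The cells were the low-density fraction (LDBM) of pooled Balb/c mouse marrow, which holds blood cell progenitors. All 3 groups shared a first culture of 4 days with stem cell factor (SCF) and FLT3 ligand (FLT3L), each at 100 ng/mL. One group was taken at the end of it, before interleukin 5 (IL-5), and the others after 4 days (day 4) and 10 days (day 10) of IL-5, a cytokine given to drive eosinophil formation. Each group had 3 arrays, 9 in all. The labels give no dose of IL-5. A culture of equal age that never received IL-5 is not analysed here, and the effects of IL-5 and of days in culture cannot be told apart. Nothing states that arrays of a group came from separate cultures or animals. The p-values therefore measure only the spread among these arrays, and that spread may be technical. Day 4 and day 10 were set against the same 3 arrays, so those comparisons are not independent.

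Each step of granule release has its own proteins. Rab GTPases of the Rab3 and Rab27 subfamilies sit on granules and recruit effectors that tether and dock them. A syntaxin and a SNAP protein on the plasma membrane then pair with a VAMP on the granule, Munc18-type proteins and Unc13d prepare the complex, and synaptotagmins couple fusion to calcium in neurons. Other Rabs and syntaxins work in the endoplasmic reticulum, Golgi and endosomes of all cells. Eosinophils store cationic proteins in granules and can release them whole, piecemeal by vesicles, or by lysis.

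Of the called genes described below, 8 of 15 had at least 1 window in the RefSeq promoter table (GRCm38.p6), and 4 had a window of 250 bases wholly outside the gene's RefSeq span, immediately before its outermost start. These windows of members that rose (Rab27a, Rab11a) and that fell (Rab23, Vamp5) are shown because they are the only ones of called members that lie fully before the gene. Capitals mark matches to 5 motifs searched on both strands, each spelled here. They were a GATA motif (AGATAA), a C/EBP motif (TTGCNNAA), a PU.1 motif (GAGGAA), a STAT motif (TTCNNNGAA) and an E-box (CACGTG). Rab27a is shown on the plus strand (chr9:73044560-73044809), Rab11a on the minus strand (chr9:64737757-64738006), Rab23 on the plus strand (chr1:33719646-33719895) and Vamp5 on the minus strand (chr6:72380469-72380718), each 5′ to 3′.
Rab27a: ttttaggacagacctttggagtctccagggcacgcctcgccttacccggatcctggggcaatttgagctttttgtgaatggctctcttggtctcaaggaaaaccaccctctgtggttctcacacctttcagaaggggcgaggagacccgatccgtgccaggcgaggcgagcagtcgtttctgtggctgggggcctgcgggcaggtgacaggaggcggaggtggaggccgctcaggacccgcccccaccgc
Rab11a: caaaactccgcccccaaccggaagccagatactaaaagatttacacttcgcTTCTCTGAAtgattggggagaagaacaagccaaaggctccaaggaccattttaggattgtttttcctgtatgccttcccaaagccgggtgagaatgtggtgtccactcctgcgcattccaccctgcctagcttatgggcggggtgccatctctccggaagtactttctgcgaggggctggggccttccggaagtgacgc
Rab23: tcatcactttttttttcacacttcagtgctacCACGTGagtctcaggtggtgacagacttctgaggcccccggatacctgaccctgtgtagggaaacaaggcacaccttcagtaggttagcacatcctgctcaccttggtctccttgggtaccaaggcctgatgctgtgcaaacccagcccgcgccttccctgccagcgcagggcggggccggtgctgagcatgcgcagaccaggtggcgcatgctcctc
Vamp5: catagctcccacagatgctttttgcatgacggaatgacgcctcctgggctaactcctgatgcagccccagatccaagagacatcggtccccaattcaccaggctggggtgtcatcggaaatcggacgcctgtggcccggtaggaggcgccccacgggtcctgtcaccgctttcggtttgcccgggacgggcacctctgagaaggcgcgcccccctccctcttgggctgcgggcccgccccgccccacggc
The Rab11a window held 1 STAT motif and the Rab23 window 1 E-box, with no overlap between motifs, while the windows of Rab27a and Vamp5 held none of the 5. A second Rab27a start, inside the gene's span (chr9:73063898-73064147), had 1 E-box in its window. Over all 32851 windows of this length, 7.02% held the STAT motif and 6.02% the E-box, against 6.54% and 10.3% of the 107 windows of 84 members. The GATA motif was in 9.99% of all windows and 3.74% of the members' windows, the C/EBP motif in 9.56% and 11.2%, and the PU.1 motif in 23.3% and 17.8%. A match describes the letters and not a bound site.

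The values were log2 signals, with array medians from 5.67 to 5.75, and gene means had a lower quartile of 4.66 and an upper quartile of 7.94. The correlation between arrays was 0.991 to 0.996 within groups and 0.927 to 0.969 between groups. The third day 10 array stood apart: 138 genes differed at least 2-fold on it from the mean of the other 2 arrays, against 0 to 31 genes on each other array. It was also the highest of the day 10 arrays for 58 of the 104 members, a count that was not made for all genes. Of the 15 members called at day 10 against before IL-5 and the 8 called against day 4, all kept their call without it.

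The cultures are mixed, and marker genes of several cell types moved with time. The 8 eosinophil markers (8 of 8 measured) had a log2 summed signal of 11.27 to 11.58 before IL-5, 14.71 to 14.79 at day 4 and 15.78 to 15.85 at day 10. The 5 primary granule genes of early granulocytes (5 of 5 measured) went from 14.14 to 14.30, through 13.87 to 13.95, to 9.87 to 11.18. For 11 neutrophil markers (11 of 11) the ranges were 13.20 to 13.55, 14.96 to 15.12 and 14.13 to 14.44. Those of monocyte and macrophage markers (9 of 10) were 11.67 to 12.05, 13.30 to 13.47 and 12.86 to 13.33. Both lists were mixed by the calls defined below. From day 4 to day 10, 2 neutrophil markers rose and 6 fell, and 1 monocyte and macrophage marker rose and 3 fell. That riser was Adgre1, the brightest of its list at day 10 (mean 12.11). Against before IL-5, 6 of the 9 rose at day 10, while Ccr2 and Cx3cr1 fell (log2 changes -1.82 and -1.55). An array has no true zero, so no marker can be called absent. Fewer cells of a type and less RNA per cell cannot be told apart in such bulk samples, and the part of these markers in any change below was not tested.

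Rise and fall are used for genes whose limma adjusted p (Benjamini-Hochberg over all genes) was under 0.05 and whose change was at least 2-fold. At day 4, 2 of the 104 members rose and limma called 0 lower, with 13 lower at an unadjusted p under 0.05. That was 1.92% of the members, beside 5.53% of all genes (3.42% rose and 2.11% fell). At an adjusted p alone, with no minimum fold, 32 members passed at day 4, 24 higher and 8 lower, beside 31.5% of all genes, 11.5% higher and 20% lower. At day 10 against before IL-5, 9 members rose and 6 fell, so 14.4% of the members were called beside 14.2% of all genes. Of the members 8.65% rose and 5.77% fell, beside 4.83% and 9.4% of all genes. The adjusted p alone was passed by 40 members, 25 higher and 15 lower, beside 42.3% of all genes, 14.8% higher and 27.6% lower. Between day 4 and day 10, 6 members rose and 2 fell, 7.69% of them beside 6.42% of all genes (2.44% rose and 3.98% fell). There the adjusted p alone was passed by 33 members, 14 higher and 19 lower, beside 31.9% of all genes, 11.7% higher and 20.2% lower. The median log2 change of the members was 0.04, 0.04 and 0.02 for day 4 against before, day 10 against before and day 10 against day 4, and that of all genes -0.11, -0.07 and 0.02.

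The share of members called at day 10 was near that of all genes. The calls lay in 15 members, while 89 were called in no comparison. In 70 members the log2 change stayed under 0.5 in size in all 3 comparisons. These counts over the 3 comparisons together were not made for all genes, so nothing is read from them about the members. Groups of arrays did not overlap in 52, 52 and 44 of the 104 members in the 3 comparisons, which is 50%, 50% and 42.3%, beside 43.6%, 49.7% and 44.2% of all genes. The called members, chosen for a large change, were all among them.

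**Figure D1:**
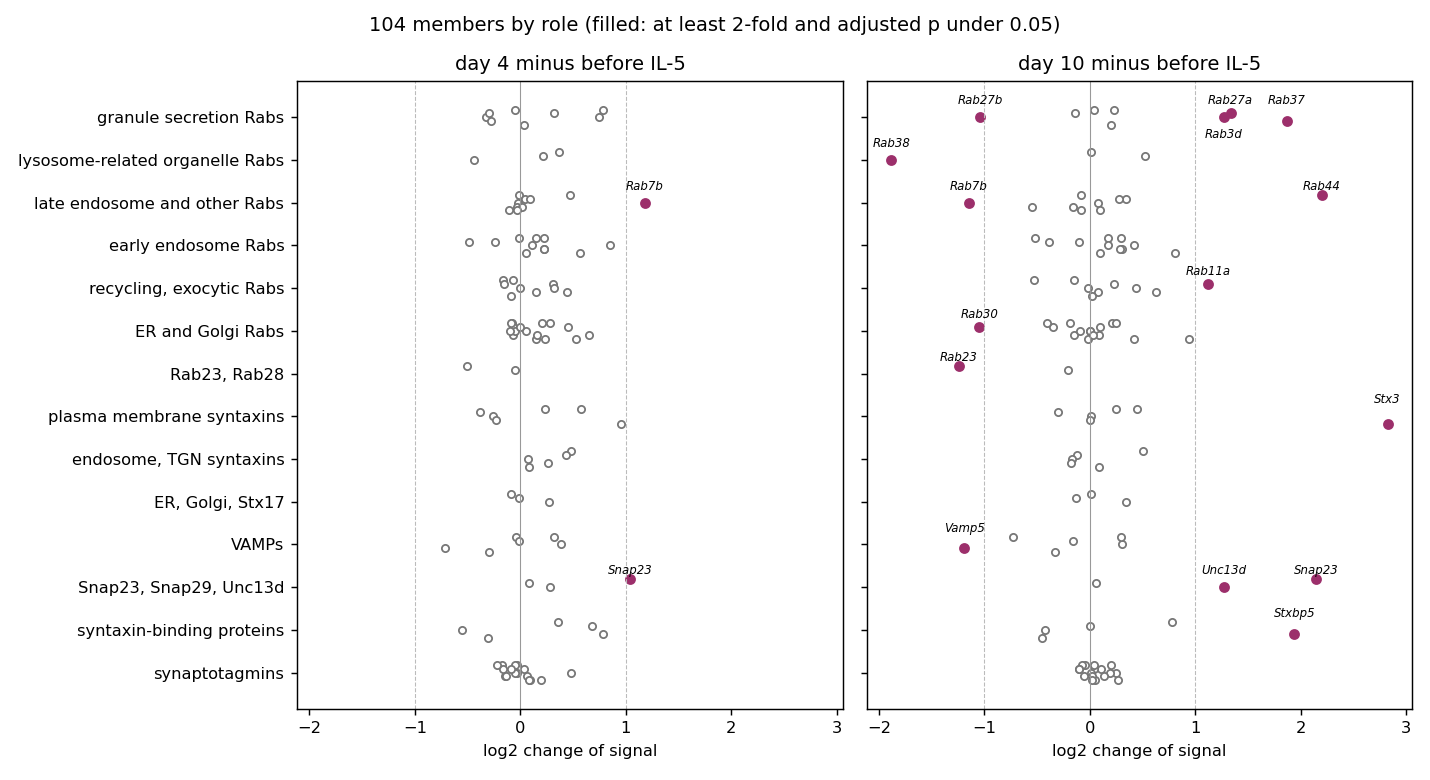
Log2 change of signal for the 104 members, grouped by role, at day 4 (left) and day 10 (right) against before IL-5; each circle is 1 gene, filled where it passed at least 2-fold and limma's adjusted p under 0.05, and dashed lines mark 2-fold. At day 4 the filled circles are Snap23 and Rab7b; at day 10 they are 9 genes above 0 and 6 below, and no synaptotagmin is among them.

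The syntaxin of the plasma membrane Stx3, which sits on the target side of the SNARE pair, had the largest rise of all members at day 10. Its log2 signal was 5.57, 5.32 and 5.87 before IL-5, 6.69, 6.60 and 6.32 at day 4, and 8.38, 8.52 and 8.32 at day 10. All arrays of a later group lay above all arrays of an earlier one. The mean went from 5.59 ± 0.278 through 6.54 ± 0.198 to 8.41 ± 0.101 (SD, n = 3), a 7.07-fold rise (log2 change 2.82, SE 0.14; limma adjusted p 6.56e-09). Between day 4 and day 10 the log2 change was 1.87, larger than the 0.95 of the first 4 days. At day 4 the change missed the 2-fold minimum; it passed without the third array before IL-5 (1.1) or without the third day 4 array (1.06).

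Its partner on the target membrane, Snap23, is the SNAP homologue found in most non-neuronal cells. It read 9.18, 9.07 and 8.57 before IL-5, 10.04, 9.86 and 10.03 at day 4, and 11.01, 11.01 and 11.24 at day 10. Groups did not overlap in any of the comparisons. Snap23 rose 4.42-fold by day 10 (log2 change 2.14, SE 0.15; limma adjusted p 8.65e-08), from 8.94 ± 0.327 to 11.08 ± 0.133 (SD, n = 3). It was the only member that rose in all 3 comparisons, by 1.04 at day 4 and by 1.11 from day 4 to day 10. The day 4 call was lost without the third array before IL-5, where the change was 0.85. Snap29, a SNAP family member without a membrane anchor that also serves endosomes and autophagy, showed changes of 0.08, 0.06 and -0.02 and was called in none.

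Stxbp5 (tomosyn) binds syntaxin and SNAP in place of a VAMP and so limits complex formation. Its arrays read 9.13, 9.37 and 9.0 before IL-5, 9.98, 10.00 and 9.87 at day 4, and 11.17, 11.18 and 10.96 at day 10. Again no group overlapped another. The rise by day 10 was 3.83-fold (log2 change 1.94, SE 0.12; limma adjusted p 2.37e-08), and from day 4 to day 10 the log2 change was 1.15. The Munc18-type Stxbp2, which assembles granule SNAREs in blood cells, was at 9.98, 9.79 and 10.02 before IL-5 and at 10.75, 10.71 and 10.67 at day 10. That difference of 0.78 passed limma's adjusted p (2.04e-05) but not the 2-fold minimum. Stxbp3, its relative, had a log2 change of 0.68 at day 4 and -0.68 from then to day 10, neither of them 2-fold. Stxbp4 and Stxbp6 had log2 changes of -0.43 and -0.46 at day 10, under 2-fold.

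Unc13d, the priming factor of cytotoxic and myeloid granules that binds Rab27a, was at 7.43, 7.46 and 7.72 before IL-5. Its day 4 arrays were 7.74, 7.90 and 7.80, and its day 10 arrays 8.78, 8.93 and 8.69. Every day 10 array was above every array of the earlier groups. The rise was 2.41-fold (log2 change 1.27, SE 0.11; limma adjusted p 7.3e-07). From day 4 to day 10 the change was 0.99, just under 2-fold; it passed after quantile normalization (1.07) and without the second day 4 array (1.03) or the third day 10 array (1.04).

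Among the 8 Rabs placed with granule secretion, 3 rose and 1 fell at day 10, where 4.83% and 9.4% of all genes did; with 8 genes grouped after earlier results were known, nothing is read from that share. Rab27a, which docks granules and melanosomes and whose loss causes Griscelli syndrome in people and the ashen coat in mice, was bright before IL-5. It read 10.22, 9.90 and 10.14 before IL-5, 10.49, 10.44 and 10.31 at day 4, and 11.49, 11.39 and 11.39 at day 10. Day 10 arrays lay above all others. The rise was 2.52-fold (log2 change 1.33, SE 0.11; limma adjusted p 3.57e-07). The change of 1.01 from day 4 to day 10 passed, but lay at the 2-fold minimum: it was 0.99 after array medians were subtracted, 0.96 without the third day 4 array and 0.98 without the first day 10 array.

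Its paralog Rab27b, a granule Rab of platelets and mast cells, went the opposite way. The arrays were 6.80, 6.71 and 7.02 before IL-5, 6.63, 6.44 and 6.48 at day 4, and 5.57, 5.81 and 6.01 at day 10. The later arrays were lower in each comparison, with no overlap. Rab27b fell 2.06-fold by day 10 (log2 change -1.04, SE 0.13; limma adjusted p 1.72e-05), and this call was lost without the third array before IL-5 (-0.95) or the first day 10 array (-0.93). The difference between the paralogs was not tested. Mast cell markers (7 of 7 measured) had a log2 summed signal of 11.45 to 11.66, 11.09 to 11.28 and 9.15 to 9.40 in the 3 groups, of which Cpa3 and Kit, the brightest of them, made up the most. Their mean log2 signal instead went up at day 4, from 6.39 to 6.48 before IL-5 to 6.60 to 6.69, while Rab27b was lower there, and was at 5.43 to 5.51 at day 10. At day 4 limma's adjusted p was passed by 3 of the 7 as higher and 1 as lower. By day 10 only Cpa3, Kit and Cma1 fell, and Mcpt4, Tpsb2, Mrgprb1 and Tpsab1 had log2 changes of -0.10, -0.04, -0.06 and -0.29. Megakaryocyte and platelet markers (6 of 9) were at 11.68 to 11.83, 11.66 to 11.80 and 11.68 to 12.38. Ppbp, the brightest of them, was at 10.18, 10.19 and 11.28 on the day 10 arrays. By day 10 Itga2b rose by 1.30, while Treml1 and Vwf had log2 changes of -0.80 and -0.74, past limma's adjusted p but under 2-fold. Gp9, Pf4 and Ppbp did not pass. The part of either marker list in the fall of Rab27b was not tested.

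Rab37, a Rab of mast cell and other secretory granules, had the largest rise from day 4 to day 10 of all members. It read 7.49, 7.32 and 7.34 before IL-5, 7.20, 7.06 and 7.06 at day 4, and 9.31, 9.24 and 9.20 at day 10. The day 4 arrays were the lowest and the day 10 arrays the highest, without overlap. By day 10 it had risen 3.65-fold over the level before IL-5 (log2 change 1.87, SE 0.10; limma adjusted p 7.43e-09), and 4.42-fold over day 4 (log2 change 2.14). It was the one riser at day 10 that was lower at day 4, with a log2 change of -0.28.

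Rab3d, the Rab3 isoform of exocrine and mast cell granules, was the one riser that changed more before day 4 than after it. It was at 7.46, 7.45 and 7.54 before IL-5, 8.25, 8.26 and 8.17 at day 4, and 8.77, 8.76 and 8.72 at day 10. The 3 groups were separate, and the spread within each was small beside the gaps between them. The log2 changes were 0.74 at day 4 and 0.52 from day 4 to day 10, and 1.27 in all (2.41-fold, SE 0.09; limma adjusted p 1.07e-07). The neuronal isoform Rab3a was dim, with a mean of 5.04 before IL-5 and 5.24 at day 10, and changes of 0.04, 0.20 and 0.16. Rab3b and Rab3c were called in no comparison, and Rab26, chosen after its values were seen, was higher at day 4 by 0.78 and at 0.04 by day 10.

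Rab44, a large Rab with calcium-binding EF hands that is made in blood cells, rose most among all Rabs. Its arrays were 8.29, 8.18 and 8.40 before IL-5, 8.80, 8.76 and 8.73 at day 4, and 10.58, 10.48 and 10.40 at day 10. The 3 groups were separate and in the order of time. The rise was 4.58-fold (log2 change 2.20, SE 0.10; limma adjusted p 1.97e-09), of which 1.72 came after day 4. Rab11a, the Rab of recycling endosomes, read 8.44, 8.62 and 8.23 before IL-5, 8.81, 8.63 and 8.78 at day 4, and 9.55, 9.55 and 9.57 at day 10. The day 4 arrays lay just above those before IL-5 and well below those of day 10. Rab11a rose 2.18-fold (log2 change 1.12, SE 0.11; limma adjusted p 2.22e-06). Its close relative Rab11b showed changes of 0.00, -0.02 and -0.01 on its brighter probe set, and of -0.39, -0.10 and 0.30 on the dimmer one. The difference between Rab11a and Rab11b was not tested.

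Rab38, which with Rab32 builds melanosomes and platelet granules, fell most at day 10. The arrays were 7.88, 7.73 and 7.64 before IL-5, 7.36, 7.26 and 7.30 at day 4, and 5.87, 5.96 and 5.78 at day 10. Each later group lay below the earlier ones. The fall was 3.68-fold (log2 change -1.88, SE 0.10; limma adjusted p 1.01e-08), and -1.44 of it came after day 4. Rab32, by contrast, was higher at day 10 by 0.53, which passed limma's adjusted p (0.000833) but not 2-fold; the difference between the paralogs was not tested. The primary granule genes given above had their lowest summed signal on the same arrays, at 9.87, 10.29 and 11.18. The summed signals of dendritic cell, mast cell, basophil, B cell and T and NK cell markers were lowest there too. The part of any of these in the fall of Rab38 was not tested.

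Rab7b, a late endosome Rab of myeloid cells, was the one member called in opposite directions. Its arrays were 6.34, 6.21 and 6.31 before IL-5, 7.40, 7.46 and 7.53 at day 4, and 4.98, 4.69 and 5.74 at day 10. Day 4 was highest and day 10 lowest, without overlap, and the third day 10 array was the highest of its group. Rab7b rose 2.26-fold at day 4 (log2 change 1.18, SE 0.20; limma adjusted p 0.000553). It then fell 5.02-fold from day 4 to day 10 (log2 change -2.33; limma adjusted p 1.7e-06). Against before IL-5 the day 10 change was -1.15 (limma adjusted p 0.000341), -1.45 without the third day 10 array, and -0.93, no longer called, without the second. The log2 summed signal of dendritic cell markers (8 of 8 measured) had the same shape, at 10.50 to 10.59, 12.28 to 12.35 and 9.02 to 9.08. Not every marker had it. At day 4 5 of the 8 rose, and Flt3, Xcr1 and Zbtb46 had log2 changes of -0.09, 0.12 and 0.23. At day 10 against before IL-5 2 fell and 6 passed limma's adjusted p as lower, while Ccl22 and Fscn1 were at -0.17 and -0.07. The part of these or other markers in the change of Rab7b was not tested. Rab7, the general late endosome Rab, was called in none, with changes of 0.09, 0.27 and 0.19.

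The other members that fell were dim or of moderate signal. Rab23, known from Hedgehog signalling and cilia, was at 5.72, 6.05 and 6.10 before IL-5, 5.55, 5.42 and 5.40 at day 4, and 4.62, 4.75 and 4.76 at day 10. Every later group was lower, and the log2 change at day 10 was -1.24 (2.37-fold lower, SE 0.12; limma adjusted p 1.2e-06). Vamp5, a VAMP relative first described in muscle, was at 7.16, 7.62 and 7.13 before IL-5, 6.61, 6.65 and 6.52 at day 4, and 6.10, 6.18 and 6.04 at day 10. It fell 2.29-fold (log2 change -1.19, SE 0.13; limma adjusted p 4.45e-06), with no overlap between groups. Rab30, a Golgi Rab, was at 4.93, 5.31 and 5.51 before IL-5, 5.42, 5.04 and 5.07 at day 4, and 3.97, 4.10 and 4.54 at day 10. Only the day 10 arrays stood apart from the others, and they lay low on the scale. Its fall of -1.05 (limma adjusted p 0.00025) was lost without the third array before IL-5 (-0.92), the first day 10 array (-0.93) or the second (-0.997). From day 4 to day 10 the log2 change of Rab30 was -0.98, short of 2-fold. That change passed after quantile normalization (-1.02) and without the second (-1.05) or the third (-1.03) day 4 array or the third day 10 array (-1.15).

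The summed signals of other marker lists were also lower after IL-5 than before it, though not those of every marker in them. All 7 measured of 9 erythroid markers fell at day 4 and at day 10 against before IL-5, with a log2 summed signal of 11.54 to 11.66, 8.34 to 8.61 and 8.25 to 8.43 in the 3 groups. All 7 measured of 8 B cell markers fell in the same comparisons, with 11.28 to 11.38, 9.03 to 9.28 and 8.15 to 8.25. Of 5 basophil markers (5 of 5 measured) 1 fell at day 4 and 2 at day 10, with 10.85 to 11.02, 10.38 to 10.50 and 9.36 to 10.18. Under 2-fold, Prss34 was higher at day 4 by 0.57 (limma adjusted p 0.0308). Cd200r3 was higher at day 10 by 0.62 (limma adjusted p 0.00103). Of 10 T and NK cell markers (10 of 10 measured) 3 fell at day 4, and at day 10 2 rose and 4 fell, with 10.25 to 10.45, 9.90 to 9.93 and 9.38 to 9.56. The risers were Cd3g and Cd3d, with log2 changes of 3.21 and 1.49. The part of these markers in the fall of any member was not tested.

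**Figure D2:**
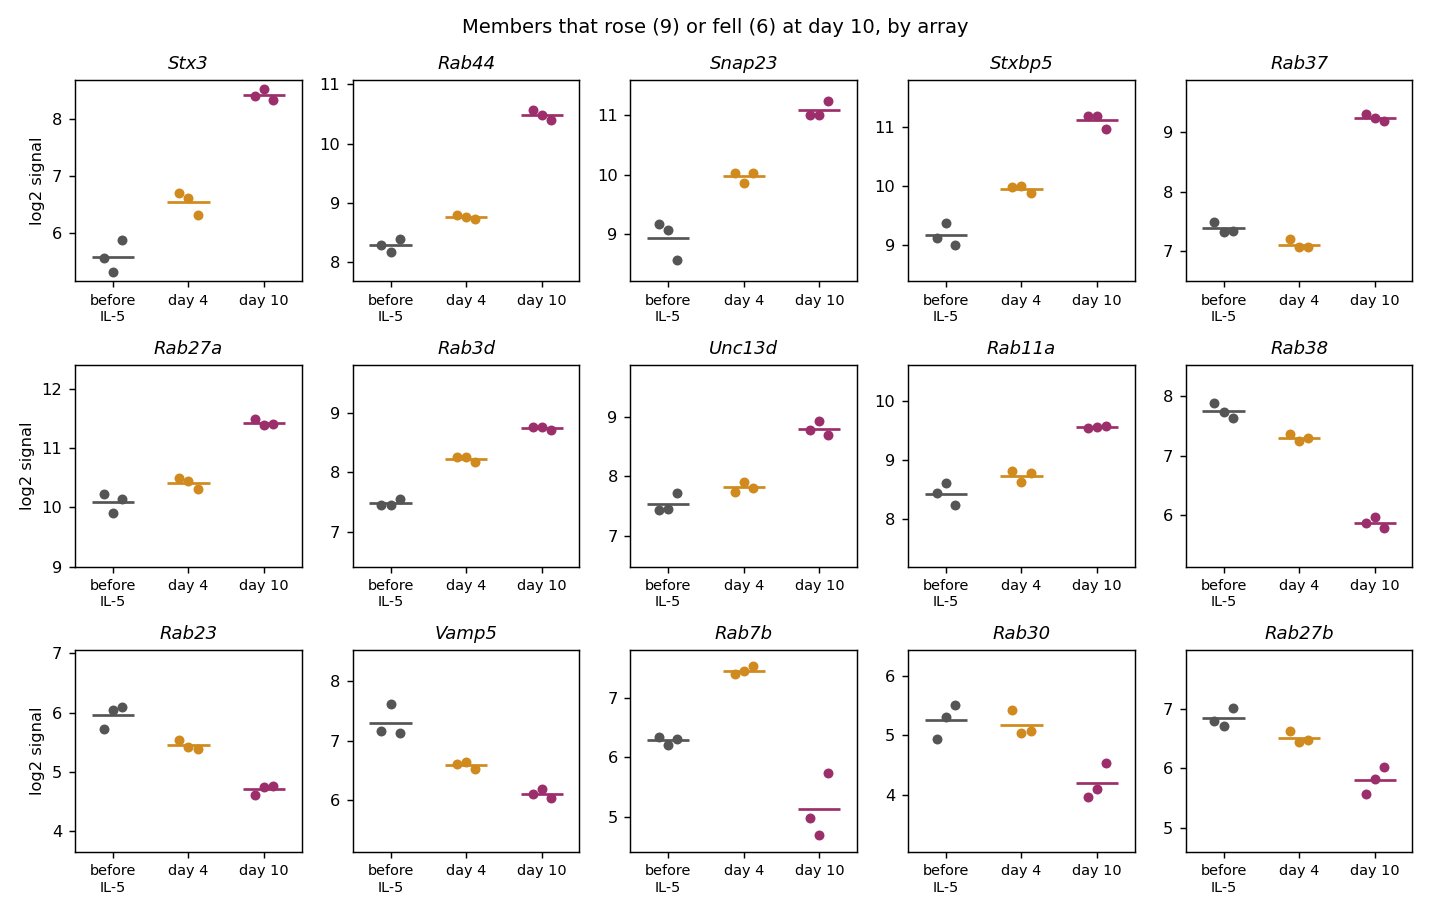
Log2 signal on each of the 9 arrays for the 15 members that rose (first 9 panels) or fell (last 6) at day 10 against before IL-5; points are arrays, bars group means, n = 3 a group, and each panel spans at least 3.4 log2 units. Rab37 dips at day 4 before it rises, Rab7b peaks at day 4, and the other 13 move one way in their group means.

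Most rises were larger from day 4 to day 10, the longer interval, than from before IL-5 to day 4. Of the 9 members that rose at day 10, 8 had a larger change after day 4 than before it (the exception was Rab3d). Snap23 was close, with 1.11 after day 4 and 1.04 before it (SE 0.15). The same count among all genes that rose was not made, and changes were not set per day. At day 4, 6 of the 9 already passed limma's adjusted p as higher. Rab11a and Unc13d had log2 changes of 0.31 and 0.28 that did not pass (limma adjusted p 0.0537 and 0.0751), and Rab37 passed as lower. Of the 6 that fell, Rab23, Rab38 and Vamp5 passed the adjusted p as lower at day 4, and Rab7b was higher. Rab27b and Rab30 had log2 changes of -0.32 and -0.07 there that did not pass (limma adjusted p 0.0776 and 0.803). The change after day 4 was the larger in 5 of these 6, all but Vamp5. Some members were higher at day 4 and back near the starting level by day 10, all under 2-fold; Rab43, an ER and Golgi Rab chosen after its values were seen, had log2 changes of 0.65 and then -0.63.

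Of the 6 VAMPs, the SNAREs carried by vesicles, 0 rose and 1 (Vamp5) fell at day 10, beside 4.83% and 9.4% of all genes. At day 10, 1 was higher and 2 lower at limma's adjusted p alone, and 2 and 3 at its unadjusted p under 0.05. Vamp8, the VAMP of regulated granules in blood cells, was at 9.86, 10.07 and 9.54 before IL-5, 10.02, 10.20 and 10.22 at day 4 and 10.10, 10.00 and 10.26 at day 10. Those groups overlap, and the changes were 0.32, 0.29 and -0.03. Vamp7, of late endosomes and lysosomes, had log2 changes of -0.30 at day 4 and -0.33 at day 10, and Vamp3, of recycling endosomes, of -0.01 and -0.16. Vamp1 had a log2 change of -0.73 at day 10, under 2-fold.

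Of the 6 syntaxins of the plasma membrane, 1 (Stx3) rose and 0 fell at day 10, beside 4.83% and 9.4% of all genes. Stx11, which cytotoxic cells need to release granules, was at 7.29, 7.19 and 7.32 before IL-5, 7.78, 7.96 and 7.79 at day 4, and 7.66, 7.61 and 7.88 at day 10. It was higher at day 4 by 0.58 and at day 10 by 0.45, without overlap but under 2-fold. Stx4a, the general plasma membrane syntaxin, was higher by 0.23 at day 4 and 0.25 at day 10 (limma adjusted p 0.0956 and 0.0632). Stx7, a late endosome syntaxin, was at 0.26 at day 4 and -0.18 at day 10. Limma called 0 of the 5 syntaxins of endosomes and trans-Golgi in any comparison, beside 5.53%, 14.2% and 6.42% of all genes. At day 4, 2 passed the adjusted p alone and 3 an unadjusted p under 0.05. At day 10, 1 did by either. From day 4 to day 10, Stx16 and Stx7 passed the adjusted p as lower, at -0.56 and -0.44.

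**Figure D3:**
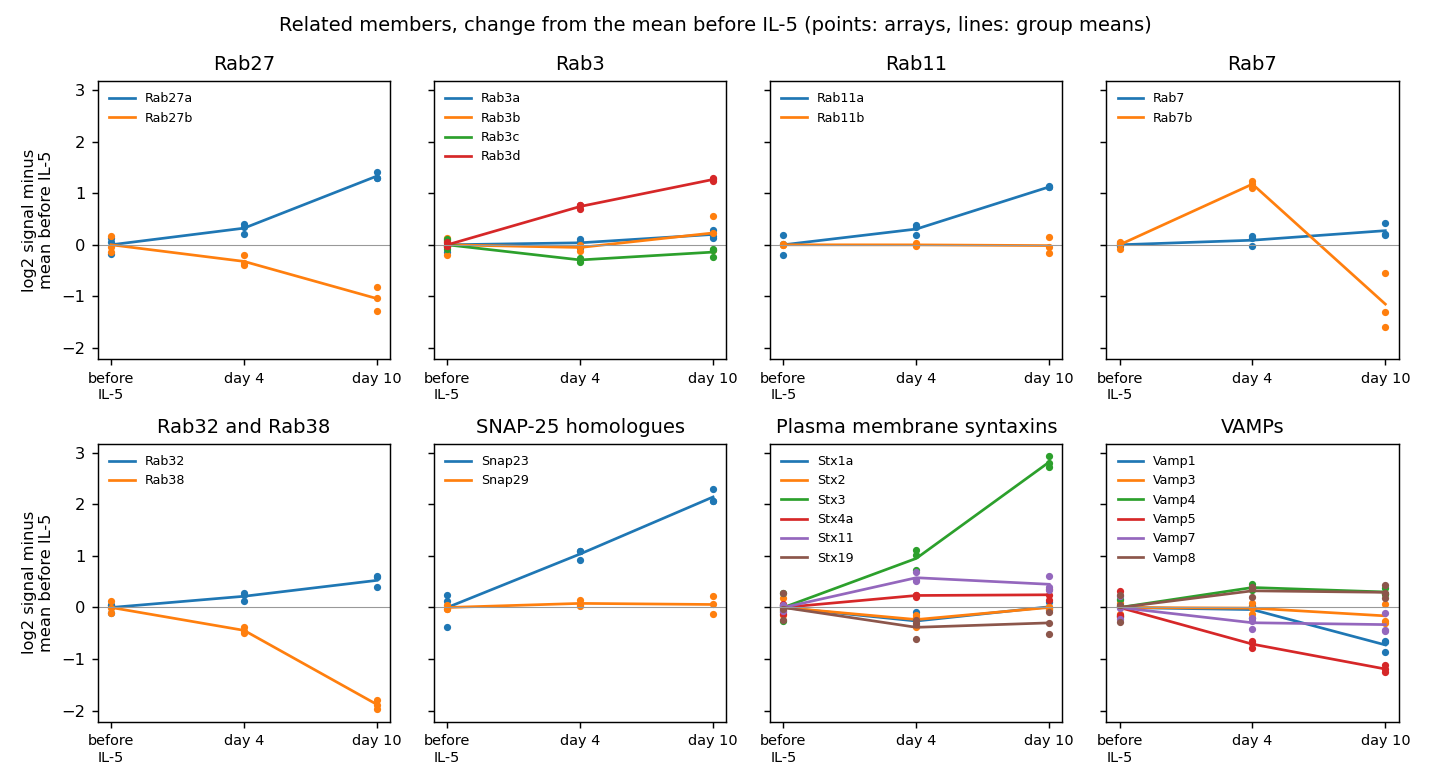
Log2 signal of related members minus their own mean before IL-5, in 8 families; points are arrays (n = 3 a group) and lines group means. In the Rab3, Rab11, Rab7 and SNAP panels Rab3d, Rab11a, Rab7b and Snap23 have the widest shifts; Rab27a and Rab27b go in opposite directions, as do Rab32 (0.53 at day 10) and Rab38 (-1.88); Stx3 leaves the other syntaxins, and Vamp5 lies below the other VAMPs.

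Of the 11 early endosome Rabs limma called 0 in any comparison, beside 5.53%, 14.2% and 6.42% of all genes. At the adjusted p alone 3 passed at day 4 and 6 at day 10 (27.3% and 54.5%), beside 31.5% and 42.3% of all genes. An unadjusted p under 0.05 was reached by 6 at day 4 and 7 at day 10. Rab5a, which drives early endosome fusion, had log2 changes of 0.23 and 0.28, and Rab5b of 0.56 and 0.81, with limma adjusted p 3.46e-05 at day 10 but under 2-fold. Of the 16 Rabs of endoplasmic reticulum and Golgi, 0 rose and 1 fell at day 10 (Rab30), beside 4.83% and 9.4% of all genes. Nothing is read from counts in groups this small. Rab39, chosen after its values were seen, was just under 2-fold at day 10, at 0.94, and was the tenth member to rise when the first array before IL-5 was left out. Rab1a, which carries traffic from the endoplasmic reticulum to the Golgi, was at 10.80 before IL-5 and 10.80 at day 10.

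The 17 synaptotagmins, the calcium sensors of regulated exocytosis in neurons, were dim throughout, with group means between 4.08 and 5.92. Limma called 0 in any comparison, beside 5.53%, 14.2% and 6.42% of all genes. The adjusted p alone was passed by 1 at day 4 and by 0 in the other comparisons. An unadjusted p under 0.05 was reached by 1 in each. At day 10 their log2 changes ran from -0.11 to 0.27. The values for Syt1, Syt2 and Syt7 were -0.05, 0.05 and 0.02. Syt11, which lacks calcium binding, was higher at day 4 by 0.48 (limma adjusted p 0.0364) and was at 0.25 at day 10. The part of low signal in the small changes of the synaptotagmins was not tested. Of all 104 members, 50 had a highest group mean above the upper quartile of gene means, and 7 under the lower quartile. By the mean over the 9 arrays, the measure of the quartiles, 9 lay under the lower one. The highest group mean was not counted in this way for all genes.

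Genes that act on or with these proteins were counted in 5 lists. Of 47 genes that load, unload or prenylate Rabs (45 measured), 5 rose and 1 fell at day 4, 10 rose and 3 fell at day 10, and 4 rose and 2 fell between the days. The shares called were 13.3%, 28.9% and 13.3%, beside the 5.53%, 14.2% and 6.42% of all genes, and the median log2 changes were 0.25, 0.16 and 0.00, beside -0.11, -0.07 and 0.02. The guanine nucleotide exchange factors of the DENN family moved in both directions. Dennd4a rose by 1.01 at day 4 and 1.94 at day 10, Dennd1c by 1.89 at day 10, and Dennd5b fell by 1.37 at day 4 and 2.01 at day 10. Dennd4a at day 4 was not called when its probe sets were averaged (0.98), or without the second array before IL-5 (0.97) or the third day 4 array (0.99). Evi5, a GTPase-activating protein of Rab11, rose by 1.81 at day 10. Tbc1d4, a Rab GTPase-activating protein known from glucose transport, rose by 1.47 at day 4 and was at -0.22 at day 10, a fall of 1.69 between the days. Among genes chosen after their values were seen, Chm, the escort protein for Rab prenylation, rose by 1.30 at day 10, and Rabggtb, a subunit of the prenylating enzyme, fell by 1.14. The count that fell between the days was 1 without the first day 10 array and 4 without the third.

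Of 46 Rab effectors (43 measured), limma called 0 at day 4. There 12 passed the adjusted p alone (27.9%, beside 31.5% of all genes), and 15 an unadjusted p under 0.05. At day 10, 3 rose and 2 fell, and between the days 3 rose and 1 fell. The shares called were 0%, 11.6% and 9.3%, beside 5.53%, 14.2% and 6.42% of all genes, and the median log2 changes were 0.10, 0.04 and 0.00. Sytl1, a Slp protein that binds Rab27, read 6.33, 6.13 and 6.46 before IL-5, 6.99, 6.94 and 6.69 at day 4, and 9.02, 9.11 and 8.99 at day 10. The groups did not overlap, and the rise was 6.64-fold (log2 change 2.73, SE 0.12; limma adjusted p 1.31e-09). The Rab11 effectors Rab11fip1 and Rab11fip4 rose by 1.79 and 1.18. Plekhm3 fell by 1.12 at day 10 after a change of 0.86 at day 4, and Osbpl1a, a binder of Rab7, fell by 1.06. Plekhm3 was not called without the first day 10 array (-0.94), nor Osbpl1a after quantile normalization (-0.99) or without the second day 10 array (-0.89). The count that fell between the days was 3 without the third day 10 array.

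Of 23 genes that build lysosome-related organelles, 1 rose at day 4, 2 rose and 1 fell at day 10, and 1 rose between the days. The shares called were 4.35%, 13% and 4.35%, beside 5.53%, 14.2% and 6.42% of all genes, and the median log2 changes were 0.09, 0.06 and -0.02. Nbeal2, needed for platelet alpha granules, went from 7.65, 7.63 and 7.64 before IL-5 through 8.28, 8.17 and 8.14 to 9.93, 9.89 and 9.75 at day 10. No arrays overlapped between groups, and the rise was 4.63-fold (log2 change 2.21; limma adjusted p 1.39e-09). Lyst, whose loss gives the giant granules of Chediak-Higashi syndrome, rose by 1.29 at day 4 and 1.49 at day 10. Bloc1s5, a subunit of the BLOC complex that sorts cargo to these organelles, fell by 1.06 at day 10; it was not called after quantile normalization (-0.95), without the third array before IL-5 (-0.96) or without the second day 10 array (-0.96). Between the days 2 rose after quantile normalization and without the second day 4 or the third day 10 array.

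Further SNAREs and core fusion genes numbered 40 measured of 41. Tethering genes of the exocyst, HOPS, COG and other complexes numbered 27 measured of 28. Limma called 0 of either list in any comparison, beside 5.53%, 14.2% and 6.42% of all genes. At an adjusted p alone 7, 17 and 15 of the former passed (17.5%, 42.5% and 37.5%), beside 31.5%, 42.3% and 31.9% of all genes. From the latter 4, 13 and 4 passed (14.8%, 48.1% and 14.8%). An unadjusted p under 0.05 was reached by 13, 19 and 19 and by 8, 14 and 10, and its share of all genes was not counted. The median log2 changes were -0.09, -0.15 and 0.03 for the former and -0.05, -0.10 and -0.05 for the latter. Without the first array before IL-5 or the third day 10 array, 1 of the further SNARE genes fell at day 10.

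**Figure D4:**
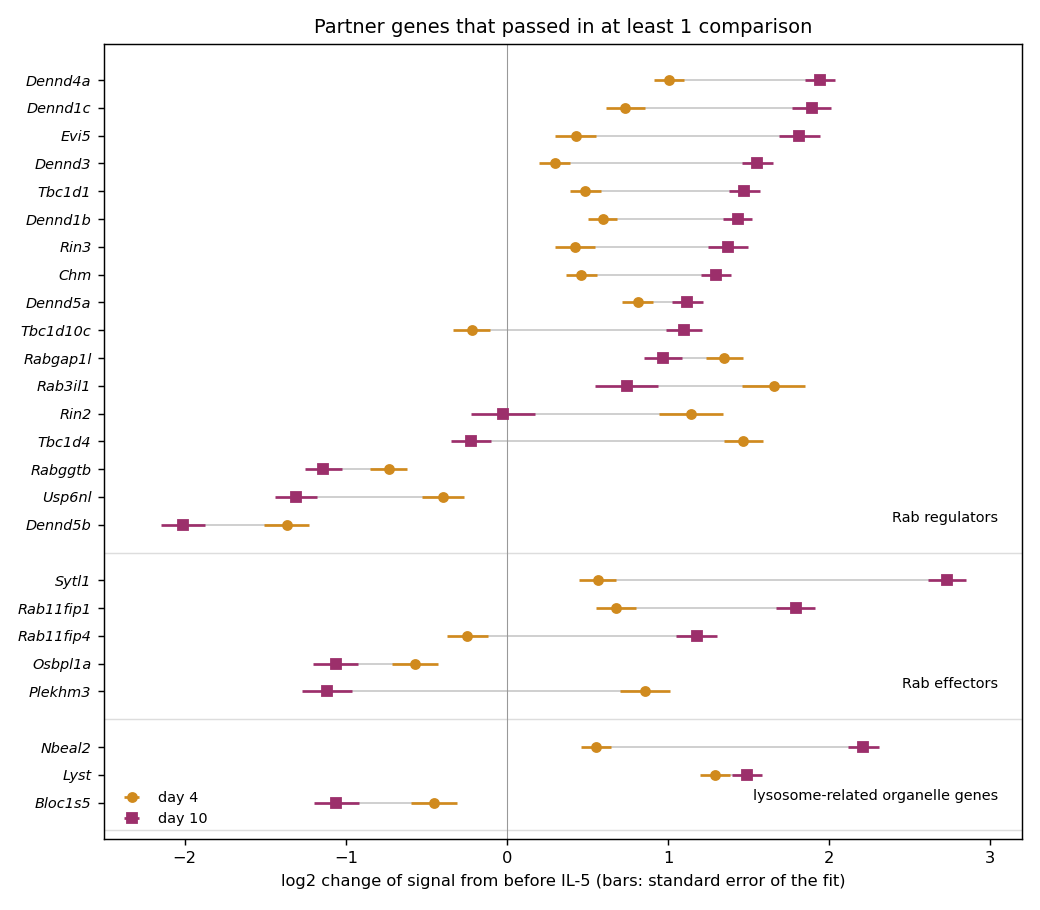
Log2 change from before IL-5 at day 4 (circles) and day 10 (squares) for the genes of the 3 partner lists that passed in at least 1 comparison; bars are the standard error of the fit, n = 3 arrays a group. Sytl1 and Nbeal2 lie farthest right at day 10, at 2.73 and 2.21, and Dennd5b farthest left, at -2.01.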

How the data were processed

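Each of 9 Affymetrix mouse gene arrays had deposited log2 signals, 1 value for each probe set. Affymetrix Expression Console 1.1.2637.26569 made them, per the submitters' processing notes, by a gene-level RMA default that the descriptions name, per the labels. For its annotation release, background and normalization, settings were not given in the sources used here. RMA compresses changes of dim genes, and no background or detection calls were used.

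Of 35557 probe sets, 21789 carried 1 symbol, 1621 several and 12147 none in the platform table, and those with 1 symbol were kept. For the 999 genes with several probe sets, 4 members among them, the brightest on average was used, which left 19938 genes. Sample titles gave the groups and the replicate numbers. The descriptions number the arrays differently, and same-numbered arrays deviated from their group means with correlations of -0.119 to 0.077, so the numbers were not taken to pair the arrays.

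The test was limma 3.58.1, run in R 4.3.3 (lmFit then eBayes on 3 group means, 2-sided, Benjamini-Hochberg over 19938 genes). A call needed an adjusted p under 0.05 and at least 2-fold. Tested on simulated data of 19938 genes with 100 planted at a log2 change of 1.5, the fit found 98% in each comparison, and made 1, 1 and 0 false calls for day 4 against before, day 10 against before and day 10 against day 4. The alternatives were quantile normalization, array medians subtracted, dim genes left out, another variance shrinkage, only the arrays compared, the mean of probe sets, no minimum fold, a replicate block and each array left out. The members and gene lists were chosen with earlier results of these data known. Named were all called members, a set of well-known secretion genes and up to 5 called genes of each list with the largest change; the other members named (Rab1a, Rab3b, Rab3c, Rab5b, Rab11b, Rab26, Rab39, Rab43, Stxbp4, Stxbp6, Vamp1), and Chm and Rabggtb, were chosen after their values were seen. Promoter windows came from RefSeq (GRCm38.p6), and no build is known for the array itself. The number of arrays limits the precision.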

Additional observations from a re-analysis of the deposited data

How the results depend on the processing

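The counts of members kept their direction, and stayed within 1.5 times of the values reported, under each alternative but one. With no minimum fold, by construction, 24 members were higher and 8 lower at day 4, 25 higher and 15 lower at day 10, and 14 higher and 19 lower between the days. Leaving out each array in turn gave 2 to 3 rising and in each case 0 falling members at day 4, 9 to 10 rising and 4 to 6 falling at day 10, and 5 to 7 rising and 2 to 3 falling between the days. In this section the named members are the called ones and the set of well-known secretion genes. Members named after their values were seen are not counted among them. No called change of a named member had the other sign under any alternative run. Of the 96 changes of named members, 18 that were not called, at most 0.088 in size, had the other sign under at least 1 alternative, with adjusted p of 0.459 or more. Without the third day 10 array these were Snap29 (0.06 to -0.03) and Stxbp3 (0.00 to -0.11) at day 10 and Rab5a (0.06 to -0.05) and Syt2 (-0.04 to 0.09) between the days. Of the 15 members called at day 10, 12 kept their call under every alternative that kept the 2-fold minimum, all but Rab7b, Rab27b and Rab30; between the days 7 of 8 did (not Rab27a), and at day 4 1 of 2 (Rab7b, not Snap23). With the replicate number as a block the member counts were 2 rising and 0 falling at day 4, 9 and 6 at day 10, and 6 and 2 between the days; the numbers do not pair the arrays, and the block changed 0 calls of the named members. Among all genes at day 10 against before IL-5, 964 rose and 1875 fell in the main fit. After quantile normalization 1114 rose and 1523 fell, which put the share of falling genes among called genes at 57.8%. The part of dim signals was not tested, and the cause of any lost call was not tested.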
